A study of Homo sapiens with 6 samples.

Results

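The endoplasmic reticulum (ER) folds secreted and membrane proteins, reports on the load of unfolded protein, and hands misfolded protein back to the cytosol for destruction. A set of 31 genes for these tasks was followed in HK-2 cells, a human cell line derived from the proximal tubule of the kidney. Each gene was taken as the row of the count and FPKM tables with its symbol, and all 31 symbols had exactly 1 row among the 28565 genes of the count table. By task, 15 of the 31 genes encode folding helpers, 4 encode the unfolded protein sensors and the factor XBP1, 10 encode parts of ER-associated degradation (ERAD), and 2 encode subunits of the translocon.

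The series holds 6 libraries, and all 6 were made from HK-2 cells transfected with a plasmid that overexpresses the long noncoding RNA called LncR2 in the sample titles. In 3 libraries (OE_LncR2_0h) the cells had 0 h of cisplatin, a DNA-damaging anticancer drug that is toxic to kidney tubules, and in the other 3 (OE_LncR2_24h) they had 24 h. The plasmid is therefore shared by both groups, the effect of LncR2 itself cannot be read from them, and cisplatin and time after transfection cannot be told apart. The labels give no dose of cisplatin.

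Unfolded protein in the ER lumen is sensed by membrane proteins encoded by ATF6, ERN1 (IRE1) and EIF2AK3 (PERK). ATF6 is cut in the Golgi to release a transcription factor, IRE1 splices the XBP1 message so that it encodes an active factor, and PERK phosphorylates the initiation factor eIF2, which slows translation and raises ATF4. In textbook accounts, ATF6 and spliced XBP1 raise chaperone and degradation genes through promoter elements named ERSE and ERSE-II, so the messages of the folding genes are used as a readout of ER stress in tubule cells as elsewhere.

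The RefSeq promoter windows (250 bases before to 50 bases after the start of the gene, assembly GRCh38.p14) held these elements in 9 of the 28 genes matched. PDIA3, DERL1 and DERL3 were not matched. The letters searched on both strands were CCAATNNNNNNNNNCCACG for ERSE and ATTGGNCCACG for ERSE-II. ERSE was found in 6 of 28 windows (21.4%), those of HSPA5, HSP90B1, CALR, CANX, CRELD2 and XBP1, and in 0.0806% of all 27305 windows of the same length. ERSE-II was found in 3 of 28 windows (10.7%), those of SDF2L1, HYOU1 and HERPUD1, and in 0.0549% of all windows. With 5 to 13 bases between CCAAT and CCACG, the members matched at a spacing of 9 only: 0 members matched at any of the other 8 spacings, which 4 to 16 of all windows held. The elements and their spacing are known from chaperone and degradation genes, the kind of gene followed here. Their share among the members and the match at 9 are therefore no independent evidence. The 5 stretches shown are those of XBP1 and HERPUD1, whose counts fell, and of HSPA5, HYOU1 and CRELD2, which hold the same elements and whose counts did not pass the test. They read 5′ to 3′ on the strand of the gene, with the matched letters in capitals, and CGTGG and ATTGG are the reverse complements of CCACG and CCAAT.
XBP1: gctggCCAATcgcggagggCCACGaccgt
HERPUD1: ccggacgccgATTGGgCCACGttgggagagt
HSPA5: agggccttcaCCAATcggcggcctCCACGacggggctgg
CRELD2: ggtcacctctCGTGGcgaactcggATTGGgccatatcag
HYOU1: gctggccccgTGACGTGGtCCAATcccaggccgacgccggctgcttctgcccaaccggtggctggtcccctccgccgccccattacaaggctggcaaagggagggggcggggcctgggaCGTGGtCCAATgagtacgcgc
The XBP1 stretch lies at chr22:28800598-28800626 on the minus strand, with its ERSE beginning 52 bases before the RefSeq start of the gene. The GENCODE 29 start of XBP1 lies closer, directly beside the stretch. The HERPUD1 stretch lies at chr16:56932015-56932045 on the plus strand and holds 1 ERSE-II. The HSPA5 stretch lies at chr9:125241381-125241419 on the minus strand, and the CRELD2 stretch at chr22:49918544-49918582 on the plus strand, where its ERSE reads in the opposite orientation. The HYOU1 stretch lies at chr11:119057264-119057403 on the minus strand and holds 2 ERSE-II matches. The more distant of them overlaps TGACGTGG, the core of UPRE, another element bound by XBP1, which 0.795% of all windows held. These matches are letters in a window and do not show binding. Of the 9 genes with ERSE or ERSE-II, 2 fell and 7 did not pass the test.

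Total counts were 5028881 to 5844246 per library at 0 h and 6022268 to 7248754 at 24 h, and the 31 genes held 0.820% to 0.859% of them. The cells carried epithelial messages (KRT8 averaged 336 CPM at 0 h and 361 CPM at 24 h, and the tubule factor PAX8 410 and 352 CPM). CPM (counts scaled to the size of the library) are given after TMM scaling, which evens out composition between libraries. Genes that define the working proximal tubule, AQP1, SLC34A1, HNF4A and ANPEP, stood at or below 0.314 CPM in both groups. Markers of other cells summed to 15.95 to 20.45 CPM for 7 fibroblast genes, 1.65 to 3.18 CPM for 6 endothelial genes and 1.65 to 3.62 CPM for 7 leukocyte genes.

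After 24 h of cisplatin no folding gene passed the test in either direction, while XBP1 fell to 0.753 times and HERPUD1 to 0.76 times its mean CPM at 0 h. In bulk RNA, fewer cells with a message and less of it per cell cannot be told apart. Counts were tested by quasi-likelihood in edgeR, with p-values adjusted over 13389 genes (Benjamini-Hochberg) and 0.05 as the threshold. The test called 116 of all genes higher (0.866%) and 278 lower (2.08%). Of the 30 member genes tested, 0 rose, 2 fell and 28 did not pass, with 7 (23.3%) at an unadjusted p under 0.05, beside 18.1% of all genes tested. DESeq2 called 0 members higher and 1, XBP1, lower. DERL3, an ERAD channel protein known from secretory cells, held 5, 5 and 6 counts at 0 h and 4, 6 and 8 counts at 24 h and was not tested. The median log2 fold change of the 30 was 0.01, and that of all genes tested was -0.00. In 6 of the 30 genes every library at 24 h lay below every library at 0 h, and in 0 of them above. The 6 were PDIA4, ATF6, ERN1, XBP1, SEL1L and HERPUD1. Over all genes tested, 11.7% lay below in this sense and 10.9% above.

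**Figure D1:**
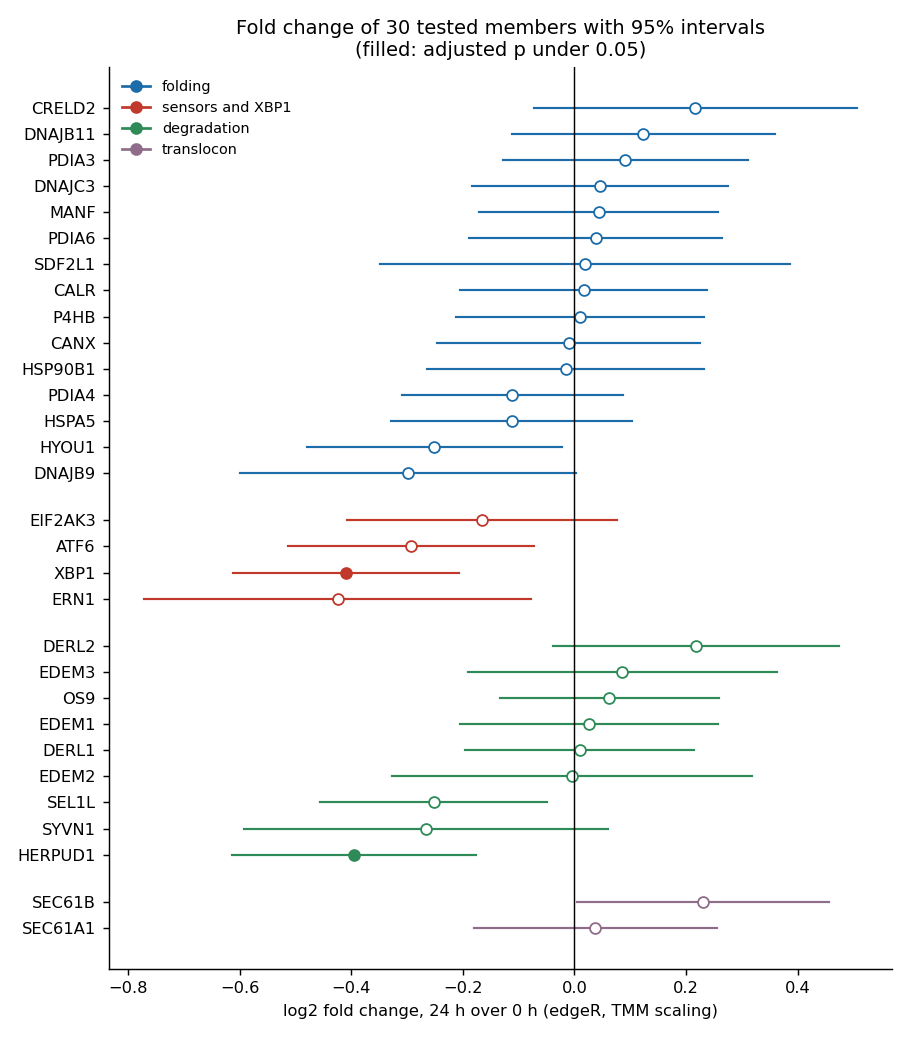
Log2 fold change (24 h over 0 h, x axis) of the 30 tested genes by task, as points with 95% intervals from edgeR; filled points passed an adjusted p of 0.05. The 2 filled points, XBP1 and HERPUD1, lie left of 0 at -0.41 and -0.39, and the folding genes lie between -0.30 and 0.22.

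The sensor genes and XBP1 all had lower mean CPM at 24 h (on the FPKM scale described with the levels, EIF2AK3 did not), with a median log2 fold change of -0.35, and 1 of the 4 passed the test. XBP1, the transcription factor downstream of IRE1 (chr22:28794555-28800597, minus strand, GENCODE 29 on GRCh38), had 894, 827 and 985 counts at 0 h and 749, 928 and 942 counts at 24 h. On the CPM scale these were 178, 162 and 174 at 0 h and 123, 134 and 129 at 24 h. The groups did not overlap, and the lowest library at 0 h lay well above the highest at 24 h. Its mean went from 171 ± 8.35 to 129 ± 5.38 CPM (SD, n = 3 each), and its log2 fold change was -0.41 ± 0.10 (SE), with an adjusted p of 0.0291 by edgeR. Counts per gene do not separate the spliced from the unspliced XBP1 message. XBP1P1, its processed pseudogene, held 0.131% as many counts as XBP1.

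The XBP1 call was lost on leaving out any 1 library other than 0 h replicate 3, with an adjusted p of 0.0798 to 0.130 by edgeR and a log2 fold change of -0.45 to -0.38 in those 5 fits. It was also lost with no filter on low counts (adjusted p = 0.0685 by edgeR) and on the FPKM scale, where XBP1 was at -0.17.

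ATF6 had 70.8, 74.7 and 80.3 CPM at 0 h and 59.0, 60.9 and 64.3 CPM at 24 h. Every library at 24 h lay below those at 0 h. Its log2 fold change was -0.29 ± 0.10 (SE), and its adjusted p of 0.143 by edgeR did not pass. ERN1, the gene of IRE1, had 30.5, 43.1 and 29.3 CPM at 0 h and 27.6, 28.1 and 21.1 CPM at 24 h. The groups did not overlap here either, but 0 h replicate 2 stood far above the other libraries, and without it the log2 fold change went from -0.42 ± 0.16 to -0.23. The adjusted p of ERN1 by edgeR was 0.177 with all libraries. Without 0 h replicate 3 ERN1 was at -0.53 and passed as lower (adjusted p = 0.0133 by edgeR), in a fit that called 6.72% of all genes lower. EIF2AK3, the gene of PERK, had 53.0, 47.6 and 55.8 CPM at 0 h and 44.5, 44.4 and 50.5 CPM at 24 h. These groups overlapped, and its log2 fold change was -0.17 ± 0.11 (adjusted p = 0.481 by edgeR). On the FPKM scale the sensors were at -0.05 (ATF6), -0.19 (ERN1) and 0.08 (EIF2AK3), so the direction of EIF2AK3 flipped there. The sensors are long genes (ATF6 spans 197777 bases, ERN1 91678 and EIF2AK3 70836), and 3930 tested protein-coding genes of at least 60 kb had a median of -0.07, while the 6 members of that span had a median of -0.21. The part of gene span in these values was not tested. XBP1 and HERPUD1 span 6043 and 12816 bases.

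**Figure D2:**
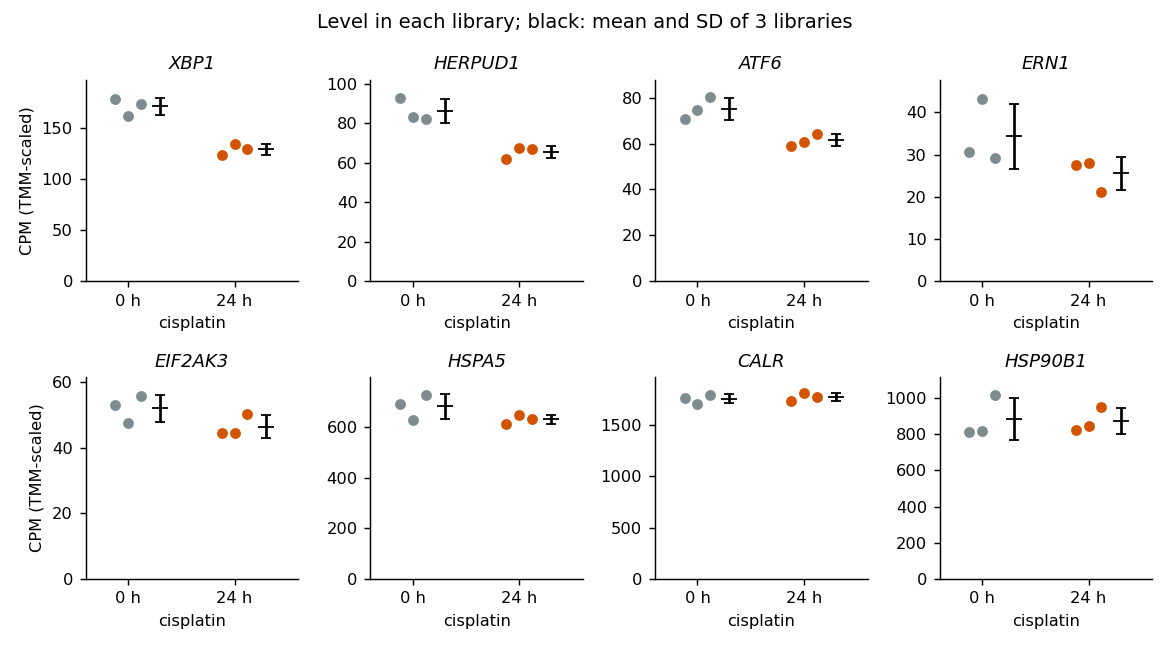
TMM-scaled CPM (y axis, from 0) in each of the 6 libraries for XBP1, HERPUD1, the 3 sensor genes and 3 chaperone genes; grey points are 0 h, orange points 24 h, and black marks the mean and SD of 3 libraries. XBP1, HERPUD1, ATF6 and ERN1 show no overlap between the groups, and EIF2AK3, HSPA5, CALR and HSP90B1 do.

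The folding genes lay closer to 0, with a median log2 fold change of 0.02 over 15 genes, 9 above 0 and 6 below. None rose or fell by edgeR or by DESeq2, and 1 of the 15 (HYOU1) had an unadjusted p under 0.05. HSPA5 encodes BiP, the ER HSP70 that binds unfolded chains and holds the sensors inactive. It had 694, 629 and 727 CPM at 0 h and 614, 650 and 633 CPM at 24 h. The libraries at 24 h lay within or just under the range at 0 h. Its log2 fold change was -0.11 ± 0.10 (SE), and the 95% interval ran from -0.33 to 0.10. On the FPKM scale HSPA5 was at 0.13. HSP90B1 (GRP94), the ER HSP90, had 814, 818 and 1019 CPM at 0 h and 821, 848 and 953 CPM at 24 h, with a log2 fold change of -0.02 ± 0.12. The library numbered 3 was the highest of its group at both times.

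The BiP partners spread to both sides of 0. HYOU1 (GRP170), which exchanges nucleotide on BiP, had 223, 205 and 175 CPM at 0 h and 178, 171 and 158 CPM at 24 h. The groups touched, since 0 h replicate 3 lay just below 24 h replicate 1, and its log2 fold change was -0.25 ± 0.11 (adjusted p = 0.228 by edgeR). Without 0 h replicate 3 HYOU1 passed the test as lower, in a fit that called 6.72% of all genes lower. DNAJB9 (ERdj4), a J-domain partner of BiP that represses IRE1, had 30.7, 33.1 and 43.8 CPM at 0 h and 27.9, 28.8 and 30.99 CPM at 24 h. It was at -0.30 ± 0.14 (adjusted p = 0.279 by edgeR), and at -0.12 without 0 h replicate 3, its highest library. The other J-domain partners, DNAJB11 and DNAJC3, were at 0.12 ± 0.11 and 0.05 ± 0.11. SDF2L1, which works with DNAJB11, was at 0.02 ± 0.17, the widest error of the members.

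The lectin chaperones, which hold glycoproteins during folding, had nearly equal CPM in both groups. CALR (calreticulin) had 1765, 1712 and 1798 CPM at 0 h and 1741, 1817 and 1777 CPM at 24 h, with a log2 fold change of 0.02 ± 0.10, and CANX (calnexin) was at -0.01 ± 0.11. The disulfide isomerases lay close by, with P4HB at 0.01 ± 0.10, PDIA6 at 0.04 ± 0.11, PDIA3 at 0.09 ± 0.10 and PDIA4 at -0.11 ± 0.09. PDIA4 was the folding gene whose groups did not overlap: 249.4, 246.8 and 241.9 CPM at 0 h lay above 235.7, 225.3 and 222.2 CPM at 24 h. Its groups were tight (SD 3.84 and 7.09 CPM), its ratio of means was 0.926, and its adjusted p by edgeR was 0.579. CRELD2 and MANF, secreted ER proteins that are sensitive markers of ER stress, were at 0.22 ± 0.14 (0.12 without 24 h replicate 3) and 0.04 ± 0.10. CRELD2 had 24.9, 23.3 and 26.8 CPM at 0 h and 25.2, 29.5 and 32.4 CPM at 24 h, which overlapped.

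The 95% intervals show what size of change these libraries leave room for. Over the 15 folding genes the lower bounds reached -0.60 (DNAJB9) and the upper bounds 0.51 (CRELD2) on the log2 scale, and 14 of the 15 intervals lay within a 1.5-fold change in either direction. Of all 30 genes tested, 25 intervals lay within a 1.5-fold change and 30 within a 2-fold change. These intervals are relative to TMM scaling.

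Of the 9 ERAD genes tested 1 fell, and their median log2 fold change was 0.01. HERPUD1 encodes a membrane protein that gathers the degradation complex around the ligase (chr16:56932048-56944863, plus strand). It had 466, 424 and 466 counts at 0 h and 375, 467 and 487 counts at 24 h, which were 92.9, 83.1 and 82.3 CPM at 0 h and 61.9, 67.6 and 66.8 CPM at 24 h. Every library at 24 h lay below every library at 0 h. The mean went from 86.1 ± 5.92 to 65.4 ± 3.10 CPM (SD over 3 libraries). On the log2 scale this was -0.39 ± 0.10 (SE), with an adjusted p of 0.0499 by edgeR. That p sits at the threshold. HERPUD1 did not pass with 4 other count-scaling or dispersion settings (adjusted p of 0.0508 to 0.0597 by edgeR), with DESeq2 (0.0525), with no filter (0.12) or on leaving out any 1 library other than 0 h replicate 3 (0.113 to 0.180). On the FPKM scale HERPUD1 was at -0.15 (adjusted p = 0.400 by edgeR), and limma on FPKM did not call it either. The GENCODE 29 annotation places the genes AC012181.1 and AC012181.2 on the same strand across HERPUD1, and the counting rule for such overlaps is not given in the sources used here.

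The core of the membrane ligase had lower mean CPM at 24 h without passing the test. SEL1L, the adaptor that joins lectins to the ligase, had 97.1, 103 and 107 CPM at 0 h and 84.9, 87.4 and 85.4 CPM at 24 h. The groups did not overlap, and its log2 fold change was -0.25 ± 0.10 (adjusted p = 0.172 by edgeR). SYVN1, the ligase HRD1, had 30.9, 31.2 and 21.2 CPM at 0 h and 22.9, 22.4 and 23.6 CPM at 24 h. Here 0 h replicate 3 lay below all 3 libraries at 24 h, and without it the log2 fold change went from -0.27 ± 0.15 to -0.43 and passed the test (adjusted p = 0.0480 by edgeR). That fit called 6.72% of all genes lower. Without both libraries numbered 3 SYVN1 was at -0.45 and did not pass, and without 0 h replicate 2 it was at -0.18. On the FPKM scale SEL1L was at -0.01 and SYVN1 at -0.03. SYVN1 shares its strand and part of its span with FAU, so reads could be split between them.

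The genes that pick out glycoproteins for degradation lay near 0. EDEM1, EDEM2 and EDEM3, which trim mannose from misfolded glycoproteins, were at 0.03 ± 0.11, -0.00 ± 0.15 and 0.09 ± 0.13, and OS9, a lectin that reads the trimmed glycan, was at 0.06 ± 0.09. OS9 had 145, 139 and 142 CPM at 0 h and 144, 152 and 149 CPM at 24 h. DERL1, a protein of the channel through which chains leave the ER, had 110, 103 and 117 CPM at 0 h and 113, 108 and 111 CPM at 24 h, a log2 fold change of 0.01 ± 0.10. Both genes overlapped between the groups. DERL2 had 35.3, 35.3 and 40.8 CPM at 0 h and 39.4, 46.8 and 43.3 CPM at 24 h, with a log2 fold change of 0.22 ± 0.12 (adjusted p = 0.362 by edgeR). The highest library at 0 h lay between the libraries at 24 h.

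The translocon is the pore through which new chains enter the ER. SEC61A1, which forms the pore, had 579, 513 and 495 CPM at 0 h and 560, 547 and 521 CPM at 24 h, and the groups overlapped (log2 fold change 0.04 ± 0.10). SEC61B, a small subunit at its side, had 115, 115 and 128 CPM at 0 h and 123, 154 and 141 CPM at 24 h. The groups overlapped through 1 library of each, and its log2 fold change of 0.23 ± 0.11, the highest of the members, did not pass (adjusted p = 0.262 by edgeR).

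Ratios within a library need no scaling between libraries. Per 100 counts of the 15 folding genes, XBP1 held 2.66, 2.49 and 2.41 counts at 0 h and 1.88, 1.97 and 1.87 counts at 24 h. HERPUD1 held 1.39, 1.28 and 1.14 counts at 0 h and 0.944, 0.994 and 0.965 counts at 24 h. ATF6, ERN1 and EIF2AK3 together held 2.30, 2.54 and 2.29 counts at 0 h and 2.0, 1.96 and 1.96 counts at 24 h. All 3 ratios were lower in every library at 24 h. By CPM, 11.7% of all genes tested lay below in this way. The degradation genes without HERPUD1 held 9.02, 8.78 and 8.33 counts at 0 h and 9.02, 8.57 and 8.59 counts at 24 h. The translocon genes held 10.3, 9.63 and 8.63 counts at 0 h and 10.4, 10.3 and 9.57 counts at 24 h. Both of these overlapped between the groups. Against BiP alone, XBP1 held 25.1 ± 1.05 counts per 100 HSPA5 counts at 0 h and 20.4 ± 0.278 at 24 h (SD, n = 3 each), and HERPUD1 12.6 ± 1.15 and 10.3 ± 0.248. XBP1 and HERPUD1 were chosen for these ratios because they had fallen. All of these ratios, that of the sensors included, describe the same libraries again and are no independent evidence. An exact permutation test of each ratio to HSPA5 gave p = 0.1. With 3 libraries per group that test cannot give a smaller p, so it cannot decide. A ratio shows unequal change of its parts and does not say which of them changed.

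**Figure D3:**
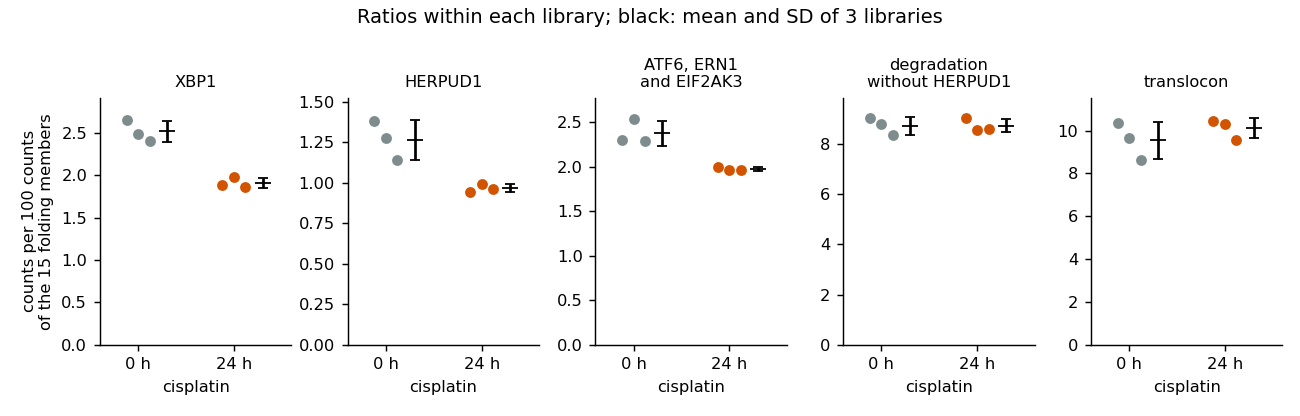
Counts of XBP1, HERPUD1, the 3 sensor genes, the other degradation genes and the translocon genes per 100 counts of the 15 folding genes (y axes, from 0) in each library; grey is 0 h, orange 24 h, black the mean and SD of 3 libraries. The first 3 panels show every library at 24 h below those at 0 h, and the other 2 panels overlap.

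Per length, the members spanned from the most abundant messages of the cell to the barely detected. FPKM, the deposited values scaled by gene length and library size, allow levels of different genes to be compared. CALR led with a mean of 571 FPKM over the 6 libraries, above 99.8% of all genes. HSP90B1 (189), P4HB (188) and CANX (166 FPKM) followed and overlapped with each other in neighbouring order at 0 h, and SEC61B (123) and HSPA5 (103 FPKM) came next and overlapped too. The folding genes ranged from 7.31 FPKM (DNAJB9) to CALR. XBP1, at 44.7 FPKM, stood among MANF (45.7) and DNAJB11 (44.2 FPKM), far above the sensors. EIF2AK3 had 6.25 FPKM, ATF6 5.56 FPKM and ERN1 1.85 FPKM. Among the degradation genes OS9 (31.2 FPKM), DERL1 (19.5 FPKM) and HERPUD1 (15.6 FPKM) led, and DERL3 was lowest at 0.175 FPKM.

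**Figure D4:**
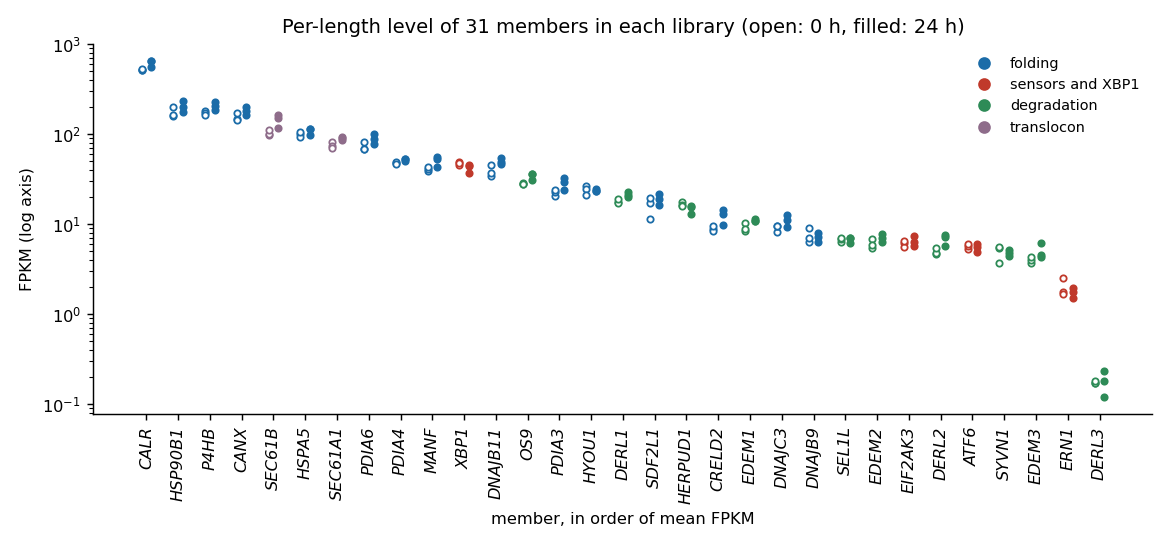
FPKM (log axis) of the 31 genes in each library, in order of their mean, with open points for 0 h and filled points for 24 h, coloured by task. CALR stands highest at a mean of 571 FPKM, ERN1 at 1.85 FPKM and DERL3 at 0.175 FPKM are lowest, and this scale puts the log2 fold changes of all genes 0.24 higher than TMM does.

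The deposited FPKM place the 2 groups differently from the counts. The library size by which the FPKM were divided, recovered from the ratio of counts to FPKM over 183 genes, did not follow the total counts, and with it the log2 fold changes of all genes shifted by 0.24. On that scale 2354 genes of all passed as higher (17.6%) and 195 as lower (1.46%). Of the 30 members tested, 4 were called higher (CRELD2, DNAJB11, DERL2 and SEC61B) and 0 lower, so their share called higher was no larger than that of all genes. The median log2 fold changes were then 0.26 for the folding genes, 0.25 for degradation, 0.37 for the translocon and -0.11 for the sensors with XBP1. These values come from the same counts with other library sizes, which moves all genes by nearly the same amount. The order of the groups could therefore hardly differ from that with TMM. Relative to the shift of 0.24, the sensors with XBP1 lay below, and folding and degradation lay near the shift. The FPKM of the folding genes summed to 1384, 1361 and 1475 at 0 h and 1486, 1718 and 1772 at 24 h, while their CPM summed to 6708, 6512 and 7218 at 0 h and 6555, 6800 and 6924 at 24 h. Which scale is closer to the amount of RNA per cell was not tested.

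Lists of neighbouring genes of the same pathway showed few calls outside the ATF4 arm. None of 35 other ER folding enzymes rose or fell, with a median log2 fold change of -0.03. TXNDC5, a disulfide isomerase, and TOR1B had their smallest p-values, at 0.44 ± 0.16 and 0.24 ± 0.10. None of 41 genes of N-glycan addition and quality control rose or fell (median 0.06), led by DOLK and DOLPP1, which make and recycle the dolichol carrier, at 0.49 ± 0.16 and 0.41 ± 0.14. None of 53 other ERAD factors rose or fell (median 0.06). UBE2G2, a conjugating enzyme of ERAD, was at -0.33 ± 0.10 (adjusted p = 0.0901 by edgeR), and the ligase TRIM13 was at 0.55 ± 0.18 (adjusted p = 0.118 by edgeR). Translocation into the ER (36 tested, median 0.08, led by SEC61G at 0.39 ± 0.13 and EMC4 at 0.31 ± 0.12), ER exit and return from the Golgi (45 tested, median 0.00, led by SEC24A at -0.28 ± 0.11 and TMED9 at 0.24 ± 0.11) and ER-phagy with ER shape (16 tested, median 0.05, led by FAM134B at 0.66 ± 0.28 and ATL2 at 0.17 ± 0.11) had 0 calls each. By unadjusted p under 0.05, these 6 lists held 3, 3, 8, 6, 3 and 1 genes, in each case a smaller share than the 18.1% of all genes tested, and DESeq2 called 0 genes in each. On the FPKM scale they held 6, 7, 16, 15, 5 and 3 genes called higher and 0 lower, where 17.6% of all genes were called higher.

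Around the sensors, 1 of 34 signalling genes fell. This was TXNIP, a thioredoxin inhibitor whose message IRE1 and PERK are known to control. It had 137, 150 and 138 CPM at 0 h and 79.2, 93.1 and 79.7 CPM at 24 h, and its log2 fold change was -0.75 ± 0.10 (adjusted p = 0.000703 by edgeR). In the ATF4 arm, the amino acid and stress genes that act after PERK and other eIF2 kinases, 15 of 22 genes fell and 0 rose, and the median was -0.68. ASNS, asparagine synthetase, fell from 114 to 37.0 CPM on average (-1.62 ± 0.12), INHBE from 20.7 to 4.61 CPM (-2.17 ± 0.18) and CTH from 36.0 to 16.8 CPM (-1.10 ± 0.13). That list was drawn up with earlier results of these libraries known, so its count is no independent evidence of direction. On the FPKM scale 13 of the 22 were lower and 2 higher. The values for the ER genes beside it were a median of 0.02 for folding and 0.01 for degradation, and the difference between the lists was not tested.

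**Figure D5:**
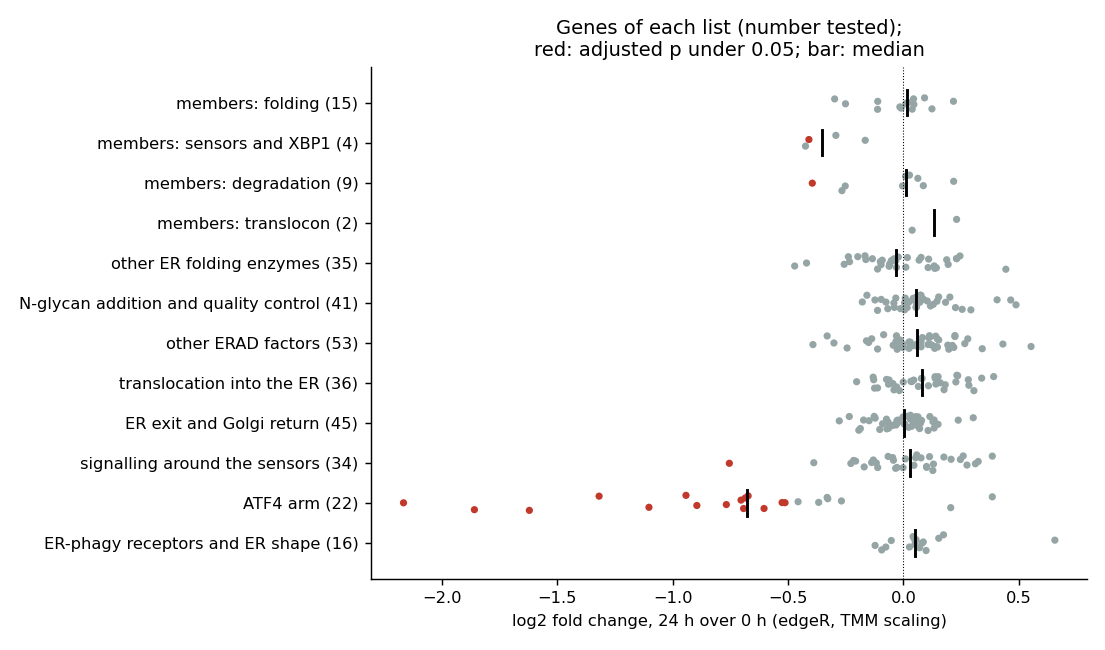
Log2 fold change (24 h over 0 h, x axis) of every tested gene of the 4 member groups and of 8 other lists, with the number tested in brackets; red points passed an adjusted p of 0.05 by edgeR and black bars are medians. The red points are XBP1, HERPUD1, TXNIP and 15 genes of the ATF4 arm, whose median is -0.68, while the other medians lie between -0.35 and 0.13.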

How the data were processed

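Total RNA of 6 HK-2 libraries was depleted of ribosomal RNA and sequenced as directional paired-end reads, per the labels' protocols. The submitters' processing notes name bcl2fastq, TopHat2 and edgeR and the build GRCh38. Not given in the sources used here are the counter, its treatment of strand and overlapping genes, and the annotation. The authors deposited raw counts per gene and FPKM, with 3 libraries a group. The labels name no separate cultures for them (the series' design mentions 2 replicates), so p-values measure the spread between these libraries, which may be technical.

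Counts were tested with edgeR 4.0.16 in R 4.3.3 (TMM scaling, filterByExpr, quasi-likelihood test, no covariates, Benjamini-Hochberg adjustment over 13389 genes). The method was tested on simulated data with the same dispersion for all genes. Only changes larger than those of XBP1 and HERPUD1 were simulated, so that test does not cover changes of their size. Alternatives were DESeq2 1.42.0, limma 3.58.1 on log2(FPKM + 1) or log2(FPKM + 0.1), other scalings and filters, and leaving out libraries. The members and lists were chosen with earlier results of these data known. Beyond the members, the 2 genes with the smallest p of each list were named, together with the calls, or the 3 smallest p where there were more. Values per library of HSPA5, HYOU1, DNAJB9, PDIA4, CRELD2, SEL1L, SYVN1, DERL2 and TXNIP were added after their values were seen. FPKM denominators were recovered from counts over FPKM. Promoter windows came from RefSeq (GRCh38.p14) and positions from GENCODE 29.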

Additional observations from a re-analysis of the deposited data

How the results depend on the processing

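XBP1 and HERPUD1 were lower at 24 h under all 20 alternatives, and XBP1 passed in 10 of them and HERPUD1 in 5. The count of members called lower was 2, and it was 1 with RLE, upper-quartile or total-count scaling, DESeq2 and robust dispersion, 0 with no filter, the FPKM denominators or limma on FPKM, and 0 to 5 on leaving out 1 library (5 without 0 h replicate 3: HYOU1, ERN1, XBP1, HERPUD1 and SYVN1). Over all genes, calls ranged from 21 to 574 higher and 92 to 923 lower on leaving out 1 library, with 306 and 539 without both libraries numbered 3, and 345 higher with no filter. The 923 lower came without 0 h replicate 3 and were 6.72% of all genes in that fit. The FPKM denominators called 2354 genes (17.6% of all) and 4 of the 30 members higher. The medians were then 0.26 for folding, -0.11 for the sensors with XBP1, 0.25 for degradation and 0.37 for the translocon. In the same order, limma gave 0.25, -0.083, 0.24 and 0.37 on log2(FPKM + 1) (1657 genes higher, 138 lower), 0.25, -0.11, 0.25 and 0.37 on log2(FPKM + 0.1) (1632 higher, 136 lower, and 1 member higher, SEC61B), and 0.25, -0.083, 0.22 and 0.37 with no filter (22 higher, 10 lower).

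Whether the replicate numbers mark pairs is not settled by these libraries. The correlations of same-numbered libraries' deviations from their group means were 0.24, -0.02 and 0.42. Those of differently numbered libraries ran from -0.37 to 0.23. Each library numbered 1 or 3 correlated best with the one of its own number. A fit with the number as a replicate block called 739 genes higher (5.52%) and 959 lower (7.16%), beside 2.08% lower in the main test. It called 6 of the 30 members lower (HYOU1, ATF6, ERN1, XBP1, HERPUD1 and SEL1L). Libraries numbered 2 did not correlate best with each other.

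Some members near 0 changed sign, none of them called in the main test or under the setting named. With the FPKM denominators HSPA5 was at 0.13, HSP90B1 at 0.23, PDIA4 at 0.12, CANX at 0.23, EIF2AK3 at 0.075 and EDEM2 at 0.23. With limma on log2(FPKM + 1), with and without the filter, the same genes were at 0.12, 0.22, 0.12, 0.23, 0.060 and 0.20, and on log2(FPKM + 0.1) at 0.13, 0.23, 0.12, 0.23, 0.068 and 0.23. With no filter HSP90B1 was at 0.032, CANX at 0.037 and EDEM2 at 0.045. With at least 50 counts P4HB was at -0.0087, CALR at -0.0019 and DERL1 at -0.0088, and with protein-coding genes alone P4HB was at -0.0036 and DERL1 at -0.0041. EDEM2 was at 0.0052 with total-count scaling and 8.5e-05 with the replicate block. Without both libraries numbered 3 HSP90B1 was at 0.031 and CANX at 0.035. On leaving out 1 library the ranges were -0.023 to 0.13 (PDIA6), -0.031 to 0.11 (DNAJC3), -0.087 to 0.10 (EDEM2), -0.0070 to 0.036 (CALR), -0.18 to 0.19 (SDF2L1), -0.049 to 0.12 (EDEM1), -0.040 to 0.060 (DERL1), -0.089 to 0.10 (HSP90B1), -0.044 to 0.052 (P4HB), -0.069 to 0.081 (CANX), -0.0051 to 0.11 (SEC61A1) and -0.055 to 0.21 (EDEM3). The ATF4 arm had 15 of 22 genes lower in the main test and 20 with the replicate block. It had 13 lower with the FPKM denominators, 11 by limma on either FPKM scale with the filter, and 2 by limma with no filter. On leaving out 1 library, 11 to 19 were lower. The cause of these changes was not tested beyond the shift that the FPKM scale gives all genes. Depth limited DERL3, whose 4 to 8 counts per library were too few to test.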

Other observations

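Beyond the members, 28 other genes held ERSE or ERSE-II in their RefSeq promoter window, and 15 of them were tested. None of the 15 rose or fell by edgeR with Benjamini-Hochberg adjustment, 12 had log2 fold changes above 0 and 3 below, and their median was 0.18, beside -0.02 for the 9 members with these elements. FICD, the enzyme that adds AMP to BiP, was at 0.37 ± 0.14 (17.8 CPM at 0 h and 23.0 CPM at 24 h), and ALG12, which shares a promoter region with CRELD2 on the opposite strand, was at 0.06 ± 0.13. The largest value was that of RAD9A, a DNA damage checkpoint gene, at 0.59 ± 0.18 (9.50 CPM at 0 h and 14.3 CPM at 24 h, adjusted p = 0.0967 by edgeR). FICD, ALG12 and RAD9A were chosen after their values were seen. DESeq2 also called 0 of the 15. On the FPKM scale, which puts all genes 0.24 higher, 8 of the 15 were called higher and 0 lower, beside 17.6% higher of all genes tested.

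The letters of the UPRE core, TGACGTGG, stood in 8 of 39 promoter windows (20.5%) of the list of ER exit and return from the Golgi, beside 0.795% of all 27305 windows. The list was picked after the counts of all lists were seen. The other 7 pathway lists held the letters in 2 of 30 windows (other ER folding enzymes), 0 of 34 (N-glycan), 2 of 37 (other ERAD factors), 2 of 30 (translocation), 0 of 31 (signalling around the sensors), 0 of 17 (ATF4 arm) and 0 of 11 (ER-phagy), and the members in 1 of 28. The 8 genes were SEC23A, SEC24A and SEC16A of the COPII coat, COPA, COPB1 and COPB2 of the COPI coat, the retrieval receptor KDELR3 and the SNARE STX5. The window is 300 bases long, both strands were searched, and binding was not measured. None of the 45 tested genes of that list rose or fell.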
